A study of Mus musculus with 10 samples.

Results

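The Fanconi anemia genes measured here are Fanca, Fancb, Fancc, Fancd2, Fancf, Fancg, Fanci, Fancl and Fancm. They were chosen by gene name, not by any value, and are 9 of the 55536 genes in the deposited tables. All 9 were detected in every library and passed the filter on low counts. RNA was sequenced from oocytes of female mouse embryos at E16.5 in 10 libraries: 5 from Taf4b-deficient and 5 from Taf4b-heterozygous embryos. Taf4b encodes a subunit of the general transcription factor TFIID that is enriched in gonads. All animals are labelled C57BL/6, and the parents of both genotypes were heterozygous for the Taf4b mutation and homozygous for an Oct4-EGFP transgene, so the embryos of both groups carried the transgene. Germ cells were sorted on green fluorescence after dead cells were removed with propidium iodide. The comparison group itself carries 1 mutant copy of Taf4b, and wild-type oocytes were not analysed here. The labels give 3 litter dates but no embryo for any library, so each p-value reflects only how these libraries vary, and some of that variation may be technical.

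The Fanconi anemia pathway repairs DNA interstrand crosslinks, lesions that tie both strands together and block replication forks. A nuclear core complex, recruited by the translocase FANCM, uses its ubiquitin ligase FANCL to attach a single ubiquitin to FANCD2 and FANCI, and the modified pair directs incision, translesion synthesis and homologous recombination. In mice, loss of these genes commonly depletes primordial germ cells and oocytes, and Fancl is the gene disrupted in the germ cell-deficient (gcd) mouse.

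RefSeq promoters (GRCm38.p6, 250 bases before to 50 bases after the annotated start, written 5′ to 3′ on the gene's strand) were matched for 8 of the 9 genes, all except Fancd2. The promoters of Fanci, Fancg and Fancl are shown, picked from a split of the libraries by globin RNA described further on. In that split Fanci and Fancl had no overlap, as did 20.4% of all genes tested, and Fancg overlapped. Capitals mark exact matches, on either strand, to any of 6 motifs: the TATA box TATAAA, the CCAAT box, the GC box GGGCGG, the E2F-type motifs TTTCCCGC (first E2F form) and TTTGGCGC (second E2F form), and the cyclic AMP response element TGACGTCA. The Fanci window is chr7:79392088-79392387, plus strand, and its match is the GC box, which begins 32 bases before the start. The Fancg window is chr4:43010252-43010551, minus strand, and its match is the first E2F form, which begins 52 bases before the start. The Fancl window is chr11:26386834-26387133, plus strand, and holds no match.
Fanci: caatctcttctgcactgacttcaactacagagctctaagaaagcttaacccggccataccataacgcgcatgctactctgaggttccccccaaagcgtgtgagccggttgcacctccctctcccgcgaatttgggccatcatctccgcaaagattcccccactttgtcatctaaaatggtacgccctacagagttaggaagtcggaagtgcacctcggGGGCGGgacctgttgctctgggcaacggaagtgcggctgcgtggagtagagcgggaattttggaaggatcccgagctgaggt
Fancg: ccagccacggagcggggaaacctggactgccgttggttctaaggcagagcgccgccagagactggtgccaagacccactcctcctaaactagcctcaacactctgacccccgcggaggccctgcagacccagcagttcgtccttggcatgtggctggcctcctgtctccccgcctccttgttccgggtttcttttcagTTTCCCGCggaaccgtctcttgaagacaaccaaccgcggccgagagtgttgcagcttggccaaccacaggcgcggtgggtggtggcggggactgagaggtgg
Fancl: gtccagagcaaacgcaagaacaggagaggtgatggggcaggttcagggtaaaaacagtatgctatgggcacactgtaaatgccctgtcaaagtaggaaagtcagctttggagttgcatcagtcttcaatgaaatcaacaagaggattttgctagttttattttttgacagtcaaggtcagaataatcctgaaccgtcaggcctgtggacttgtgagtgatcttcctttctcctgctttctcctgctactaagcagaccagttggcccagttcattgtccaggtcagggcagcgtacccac
GGGCGG was present in 5 of the 8 promoters (Fanca, Fancb, Fancf, Fanci and Fancm), against 35.66% of the 32851 RefSeq promoters counted. That set, called all promoters here, left out a chromosome that holds no member. CCAAT was also present in 5 of the 8 (Fanca, Fancb, Fancc, Fancf and Fancm), against 37.41% of all promoters. TTTCCCGC was present in 1 of the 8, against 1.07%. The TATA box was in 0 of the 8, against 13.62% of all promoters, the second E2F form in 0, against 0.51%, and the cyclic AMP response element in 0, against 1.79%. The 8 windows held a median of 19 CG pairs and 59.2% G and C, against 7 CG pairs and 52.7% over all promoters. Fancl stood apart within the family, with 3 CG pairs and 47.0% G and C, against 13 to 26 CG pairs in the other 7. The RefSeq starts used for Fancc, Fancg, Fanci and Fancl lie inside the outermost ends of the GENCODE gene models, so these windows describe 1 annotated start each. A match is a description of the letters and not a binding site.

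Library totals ran from 16707216 to 23680023 counts in deficient and from 18174863 to 26983565 counts in heterozygous libraries. CPM, the unit of the values below, is the count scaled to a common library size with TMM factors, and log2 fold changes are deficient over heterozygous from edgeR's quasi-likelihood test, adjusted by Benjamini-Hochberg over 19244 genes. Taf4b, the check of the genotype labels, had 80.7, 81.7, 80.2, 73.7 and 58.2 CPM in deficient libraries 1 to 5, against 271, 290.2, 142, 65.7 and 101 CPM in heterozygous libraries 1 to 5. The library labelled heterozygous 4 lay within the deficient range in CPM. In the deposited TPM it had 19.6 TPM, above the 15.6 to 18.6 TPM of the deficient libraries. However, the germ cell marker Ddx4 had 571 CPM and 278 TPM in that library, against 580 CPM and 218 TPM in deficient 1. The 2 scales thus differ between libraries, and the TPM of Taf4b does not settle the label. Over all libraries Taf4b had a log2 fold change of -1.22 ± 0.35 (SE), adjusted p = 0.155. Which part of Taf4b the mutation alters was not analysed here. Ddx4 averaged 551 ± 110.2 CPM in deficient and 719.5 ± 129 CPM in heterozygous libraries, while endogenous Pou5f1 was near 0 in all 10 libraries (0.173 to 1.16 CPM). By genotype, edgeR called none of the germ cell, stage or somatic markers. The authors' deposited comparison, which called 6.55% of all genes, called Ddx4, 2 of 6 stage and 3 of 4 macrophage markers lower in deficient libraries. It called 2 of 9 pregranulosa and 1 of 4 endothelial markers higher, and 0 stroma or erythroid markers. Deficient 5 and the libraries labelled heterozygous 4 and 5 stood apart with 260.4 to 798 CPM of the hemoglobin alpha gene Hba-a1, against 24.0 to 102 CPM in the other 7. They are called globin-high here. In these bulk samples, fewer cells of a type and less RNA per cell cannot be told apart.

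None of the 9 Fanconi anemia genes differed by genotype beyond the spread between libraries. Their log2 fold changes ran from -0.26 (Fancd2) to 0.19 (Fancm), 4 positive and 5 negative, with a median of -0.08, against -0.02 over all genes tested. edgeR called 0 of the 9, and 0% of the 19244 genes tested. At an unadjusted p under 0.05 it passed 0 of the 9, against 3190 genes (16.6%). The deficient and heterozygous libraries overlapped for every member, whereas they did not overlap for 680 genes (3.53%). DESeq2 and limma voom with quality weights called 649 genes (3.13%) and 510 genes (2.65%) and none of the 9. The authors' deposited table called 1172 of 17881 genes (6.55%) and also none of the 9, with log2 fold changes of -0.33 (Fancg, adjusted p = 0.310) to 0.17 (Fancm). The 95% intervals of the 9 genes reached down to -0.86 (Fanci) and up to 0.79 (Fancf) on the log2 scale.

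**Figure D1:**
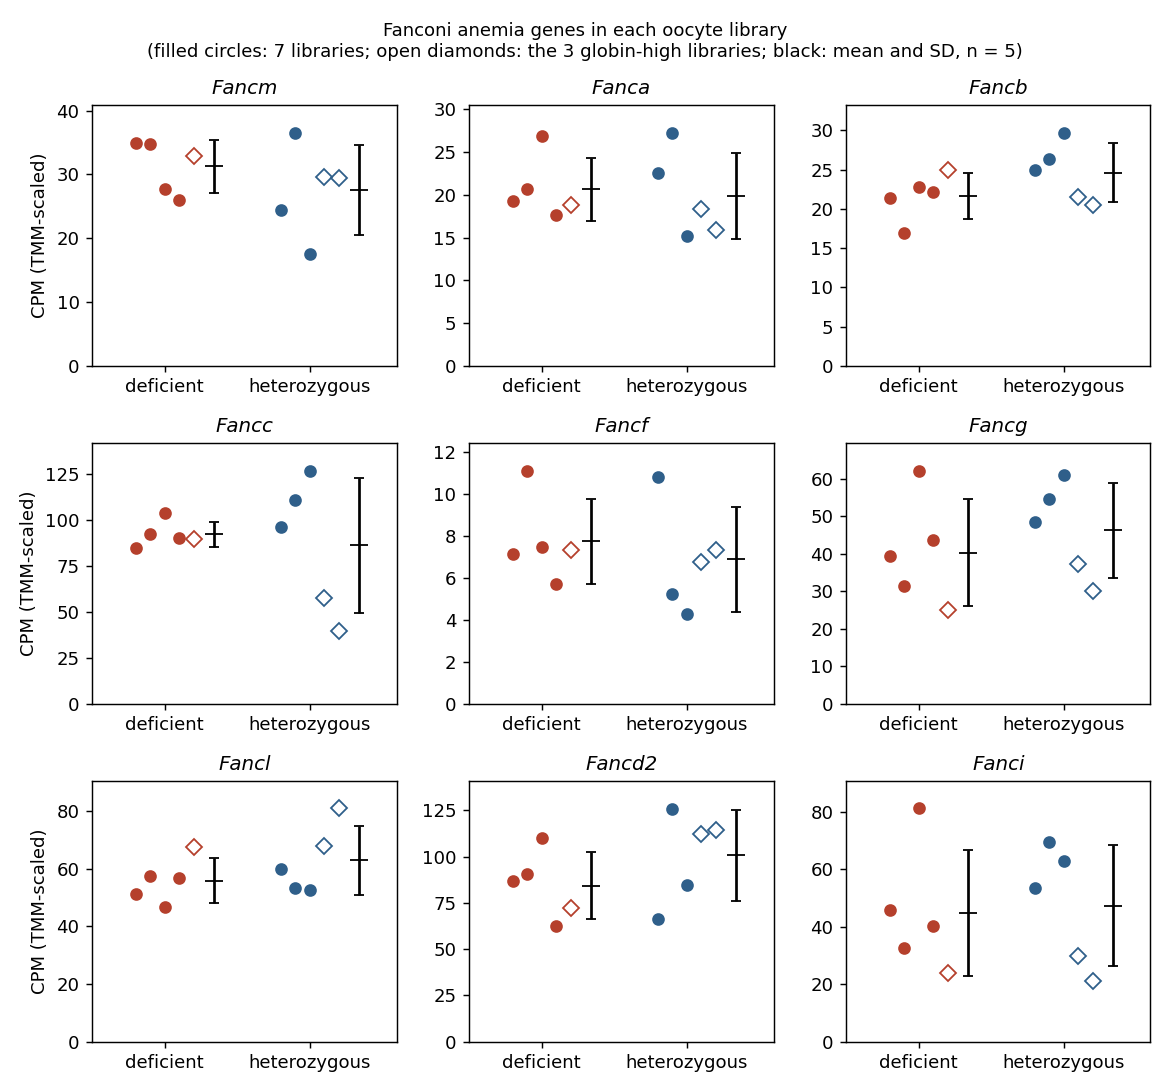
CPM of each Fanconi anemia gene (vertical axes, from 0) in the 5 deficient libraries at left and the 5 heterozygous libraries at right of each panel. Open diamonds are the 3 globin-high libraries and the black mark is the mean with its SD (n = 5). The genotypes overlap in all 9 panels, and Fanci is lowest in the 3 open diamonds.

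In the core complex, FANCA and FANCG bind each other. Fanca lies at chr8:123268300-123318576 on the minus strand (coordinates of gene models are GENCODE, GRCm38). Fanca had 19.2, 20.7, 26.9, 17.6 and 18.8 CPM in deficient libraries 1 to 5, against 22.6, 27.3, 15.2, 18.4 and 15.9 CPM in heterozygous libraries 1 to 5. Deficient 3 and heterozygous 2 were highest and the genotypes overlapped (log2 fold change 0.05 ± 0.22 (SE), 95% interval -0.41 to 0.52, adjusted p = 0.924). Fancg lies at chr4:43002343-43010506 on the minus strand. In deficient libraries 1 to 5, Fancg was at 39.3, 31.5, 62.2, 43.8 and 24.9 CPM, against 48.6, 54.6, 61.0, 37.2 and 30.1 CPM in heterozygous libraries 1 to 5. Deficient 3 and heterozygous 3 were highest, deficient 5 was lowest, and the groups overlapped (log2 fold change -0.20 ± 0.26 (SE), 95% interval -0.77 to 0.37, adjusted p = 0.736).

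FANCB is the core subunit that joins FANCL and FAAP100 in the catalytic module. Its gene lies at chrX:164980592-164997272 on the plus strand. Fancb had 21.4, 16.9, 22.8, 22.2 and 24.9 CPM in deficient libraries 1 to 5, against 24.9, 26.4, 29.7, 21.5 and 20.4 CPM in heterozygous libraries 1 to 5. Deficient 2 was lowest and heterozygous 3 highest, with the remaining libraries mixed (log2 fold change -0.18 ± 0.18 (SE), 95% interval -0.58 to 0.21, adjusted p = 0.638). FANCL is the ubiquitin ligase of the complex, and its gene lies at chr11:26386135-26471876 on the plus strand. In deficient libraries 1 to 5, Fancl was at 51.1, 57.4, 46.9, 56.7 and 67.4 CPM, against 59.8, 53.3, 52.4, 68.0 and 80.9 CPM in heterozygous libraries 1 to 5. The groups overlapped, and the highest value of each genotype was a globin-high library (log2 fold change -0.17 ± 0.18 (SE), 95% interval -0.56 to 0.22, adjusted p = 0.655).

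FANCC and FANCF form a further module of the core complex with FANCE. Fancc lies at chr13:63285043-63497278 on the minus strand. Fancc had 84.6, 92.4, 103, 90.1 and 89.7 CPM in deficient libraries 1 to 5, against 96.3, 111, 127, 57.5 and 39.4 CPM in heterozygous libraries 1 to 5. The deficient libraries lay close together, whereas the libraries labelled heterozygous 4 and 5 lay below them and heterozygous 1 to 3 mostly above. The SD was 7.0 CPM in deficient and 36.7 CPM in heterozygous libraries, and the means hardly differed (log2 fold change 0.10 ± 0.27 (SE), 95% interval -0.49 to 0.68, adjusted p = 0.890). Fancf, a gene of 1 exon at chr7:51860577-51862267 on the minus strand, had the fewest counts of the family, down to 99 in heterozygous 3. In deficient libraries 1 to 5, Fancf was at 7.11, 11.1, 7.45, 5.69 and 7.3 CPM, against 10.8, 5.21, 4.28, 6.76 and 7.33 CPM in heterozygous libraries 1 to 5. Deficient 2 and heterozygous 1 were highest and the groups overlapped (log2 fold change 0.17 ± 0.29 (SE), 95% interval -0.45 to 0.79, adjusted p = 0.801).

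FANCM anchors the core complex on DNA and remodels stalled forks. Its gene lies at chr12:65075603-65132058 on the plus strand. Fancm had 35.0, 34.7, 27.7, 26.0 and 32.9 CPM in deficient libraries 1 to 5, against 24.4, 36.5, 17.6, 29.6 and 29.4 CPM in heterozygous libraries 1 to 5. The deficient libraries lay inside the wider heterozygous range, of which heterozygous 3 was the low end and heterozygous 2 the high end (log2 fold change 0.19 ± 0.21 (SE), 95% interval -0.27 to 0.64, adjusted p = 0.680).

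FANCD2 and FANCI are the pair that the core complex modifies. Fancd2 lies at chr6:113531682-113597017 on the plus strand. Fancd2 had 87.1, 90.4, 109.8, 62.4 and 72.0 CPM in deficient libraries 1 to 5, against 66.0, 126, 84.8, 112 and 115 CPM in heterozygous libraries 1 to 5. Heterozygous 2 and the libraries labelled heterozygous 4 and 5 exceeded all deficient libraries, while heterozygous 1 was below all deficient libraries except deficient 4 (log2 fold change -0.26 ± 0.22 (SE), 95% interval -0.72 to 0.21, adjusted p = 0.575). Fanci lies at chr7:79391929-79450264 on the plus strand. In deficient libraries 1 to 5, Fanci was at 45.8, 32.8, 81.1, 40.1 and 24.1 CPM, against 53.4, 69.5, 62.8, 29.8 and 21.2 CPM in heterozygous libraries 1 to 5. Deficient 3 was highest, heterozygous 5 lowest, and each genotype spanned most of the range of the other (log2 fold change -0.08 ± 0.36 (SE), 95% interval -0.86 to 0.70, adjusted p = 0.935). The partners did not share an order of libraries, since the library labelled heterozygous 5 had the second highest Fancd2 and the lowest Fanci.

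**Figure D2:**
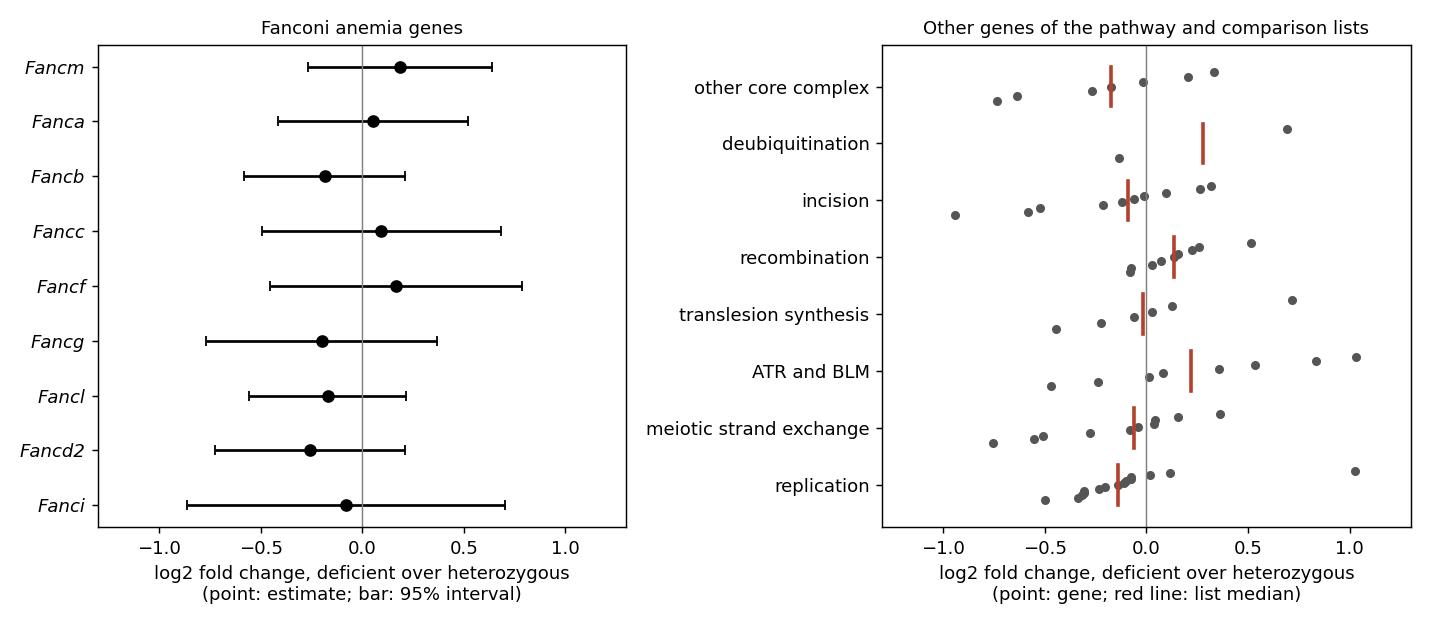
Log2 fold change, deficient over heterozygous, for each Fanconi anemia gene with its 95% interval (left) and for each gene of 8 related lists with the list median as a red line (right). All 9 intervals at left include 0, and the list medians at right lie between -0.17 and 0.28.

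Litter dates hold 1 or 2 libraries of each genotype, so differences within a date are given without a test. Fancl was the only member with a single direction on all 3 dates, with deficient minus heterozygous differences of -0.14, -0.20 and -0.38 on the log2 scale. Fancc differed by -0.29, 0.19 and 1.18 on the 3 dates in order of time. Fanci differed by -0.41, 0.25 and 0.54, and Fancd2 by -0.07, 0.03 and -0.77. A grouping of the libraries into 3 levels, the closest of 9330 searched, rebuilds the log2 fold changes of the authors' deposited table. In it, 1 level is the 3 globin-high libraries. Within these levels Fancg, Fanci, Fancl and Fancm, 4 of the 9, kept a single direction, and Fanci differed by -0.46, -0.21 and -0.06. The share of all genes with a single direction was not computed for the dates or the levels. Without the library labelled heterozygous 4, the log2 fold changes of the 9 genes ran from -0.27 to 0.22, edgeR again called none of them (0% of genes), and Fancc turned to -0.0162. Without all 3 globin-high libraries Fancc was at -0.27.

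Levels between genes were compared per length. In the deposited TPM, Fancm was highest of the family in all 10 libraries, at 208 ± 41.4 TPM in deficient and 201 ± 69.1 TPM in heterozygous libraries (n = 5 each). Fancl followed at 19.1 ± 4.52 TPM in deficient and 23.5 ± 7.35 TPM in heterozygous libraries, then Fancd2 at 13.8 ± 2.74 TPM in deficient and 18.3 ± 6.4 TPM in heterozygous libraries and Fancc at 14.5 ± 1.48 TPM in deficient and 14.2 ± 4.84 TPM in heterozygous libraries. Fancl exceeded Fancd2 in 8 of 10 libraries, but Fancd2 exceeded Fancc in 6 and Fancc exceeded Fancg in 7, so these neighbours were not separated beyond their spread. Fancg, at 12.0 ± 3.54 TPM in deficient and 14.9 ± 2.82 TPM in heterozygous libraries, exceeded Fanci in 10 of 10 libraries. Fanci was at 9.13 ± 4.02 TPM in deficient and 10.3 ± 3.98 TPM in heterozygous libraries and exceeded Fancb, at 8.27 ± 1.75 TPM in deficient and 10.0 ± 0.903 TPM in heterozygous libraries, in 6. The lowest were Fancf, at 5.5 ± 1.5 TPM in deficient and 5.28 ± 1.79 TPM in heterozygous libraries, and Fanca, at 3.16 ± 0.520 TPM in deficient and 3.3 ± 0.892 TPM in heterozygous libraries, in that order in 9 of 10 libraries.

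The counts placed Fancm elsewhere. Divided by the annotated exon length, its mean was 2.81 CPM per kilobase, rank 8 of the 9 genes. Fancl was first at 17.6 CPM per kilobase, followed by Fancd2 at 11.7, Fancg at 11.4, Fancc at 10.7, Fanci at 7.97, Fancb at 7.75 and Fancf at 4.32, and Fanca was last at 2.31. The deposited TPM of Fancm was 72.7 times its CPM per kilobase, against 1.18 to 1.40 times for the other 8 members. Over 11397 genes with at least 1 CPM per kilobase and 1000 exon bases, the median of this ratio was 1.24 (quartiles 1.19 and 1.35), 8.63% had a ratio above 10, and 101 had one at least as high as Fancm. Of other genes in the pathway and comparison lists, the ratio was above 10 for Mki67 (458), Rrm1 (36.0), Rev3l (15.9), Brca2 (15.3) and Atr (11.3), and it was lowest for Mnd1 (0.148). The cause was not tested, and the order of Fancm among the members therefore depends on which table is read.

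**Figure D3:**
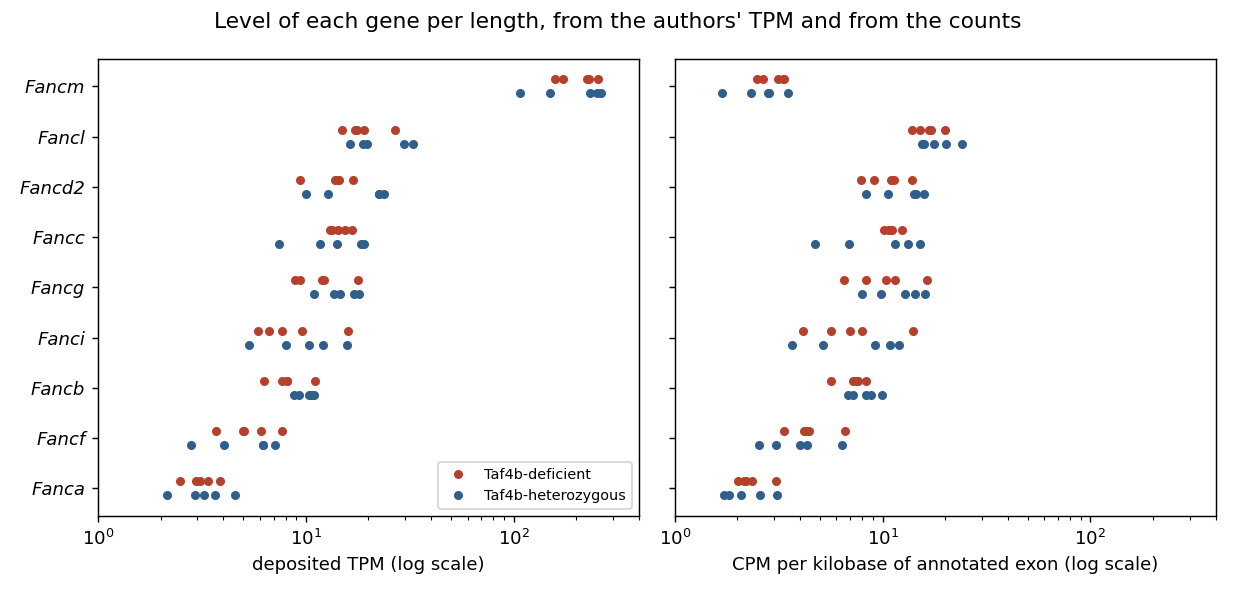
Level of each Fanconi anemia gene per length in each library, as the authors' deposited TPM (left) and as CPM per kilobase of annotated exon (right), both on log axes, with deficient above heterozygous libraries in each row. Fancm is first at left and eighth at right, and among the other 8 only Fancc and Fancg trade places.

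Counting can also be blurred by genes on the opposite strand, because the strand setting of the counting is not given in the sources used here. Fanci shares 921 exonic bases with Polg, the mitochondrial DNA polymerase gene, and Fanca shares 920 with Zfp276. Fancm shares 575 with Gm47870, Fancl 462 with Vrk2, Fancd2 257 with Fancd2os and Fancf 253 with Gas2. Fancc shares 1373 exonic bases with Gm16133 and 185 with 2010111I01Rik. Polg had 42.6 to 51.0 CPM in the 3 globin-high libraries, against 45.6 to 77.7 CPM in the other 7. These ranges overlap but lie lower in the globin-high libraries, while those of Fanci lie lower with no overlap. Vrk2 had 18.8 to 21.1 CPM in the globin-high libraries, against 14.1 to 20.3 CPM in the other 7. These ranges overlap but lie higher in the globin-high libraries, while those of Fancl lie higher with no overlap. The part of opposite-strand reads in the counts of Fanci and Fancl was not tested. Fancb and Fancg shared no exonic bases with another gene.

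The members differed in how much they varied across libraries. The SD of log2 CPM over the 10 libraries was 0.65 for Fanci, 0.49 for Fancc, 0.44 for Fancg and 0.40 for Fancf. It was 0.35 for Fancd2, 0.31 for Fancm, 0.28 for Fanca, 0.23 for Fancl and 0.22 for Fancb. The median was 0.42 over 11099 tested genes with a mean of at least 5 CPM. The ligase gene Fancl and its module partner Fancb were thus the most even, and the substrate gene Fanci the least.

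Fanci was lowest in the 3 globin-high libraries. These were chosen from Hba-a1 and not from a label, so their values are a description with no test. Fanci had 21.2 to 29.8 CPM in the 3 globin-high libraries, against 32.8 to 81.1 CPM in the other 7, with no overlap. Fancl ran the other way, at 67.4 to 80.9 CPM in the 3 globin-high libraries, against 46.9 to 59.8 CPM in the other 7, also with no overlap. Of the 19244 genes tested, 20.4% had no overlap in this split (11.7% below and 8.69% above), so 1 member below and 1 above of 9 is close to the background. Fancg had 24.9 to 37.2 CPM in the 3 globin-high libraries, against 31.5 to 62.2 CPM in the other 7, overlapping only through deficient 2 and the library labelled heterozygous 4. Fancc was low in the libraries labelled heterozygous 4 and 5 but not in deficient 5. Leaving out the library labelled heterozygous 4 cannot bring an overlap for Fanci or Fancl, because all 3 globin-high libraries already lie outside the other 7.

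Of 6 meiotic and oocyte stage markers, 1 lay below the other 7 libraries (Stra8), 1 above (Lhx8), and Rec8, Sohlh1, Nobox and Figla overlapped them. The part of these and of the cell type markers in the values of Fanci and Fancl was not tested. Stra8, which licenses meiotic entry, had 10.3 to 156 CPM in the 3 globin-high libraries, against 221 to 965 CPM in the other 7. Sohlh1, a transcription factor of later oocytes, had 1.58 to 231 CPM in the 3 globin-high libraries, against 0.192 to 9.3 CPM in the other 7, an overlap through deficient 5. Of 9 pregranulosa markers, 2 lay above the rest, and their summed level was 90.3 to 102 CPM in the globin-high libraries, against 28.5 to 112 CPM in the other 7. Of 6 stroma markers 2 lay above the rest, of 4 endothelial markers 0 did, and of 4 macrophage markers 1 lay below. Over all genes tested 8.69% lay above and 11.7% below, so counts of 1 or 2 in lists this small are not read as a result. Of the 7 erythroid markers 5 lay above, a count that the choice of libraries by Hba-a1 largely fixes. The summed levels of the stroma and endothelial markers overlapped the other 7 libraries, as did those of the pregranulosa and germ cell markers. The 5 germ cell markers summed to 3103 to 4758 CPM in the globin-high libraries, against 3773 to 5624 CPM in the other 7.

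**Figure D4:**
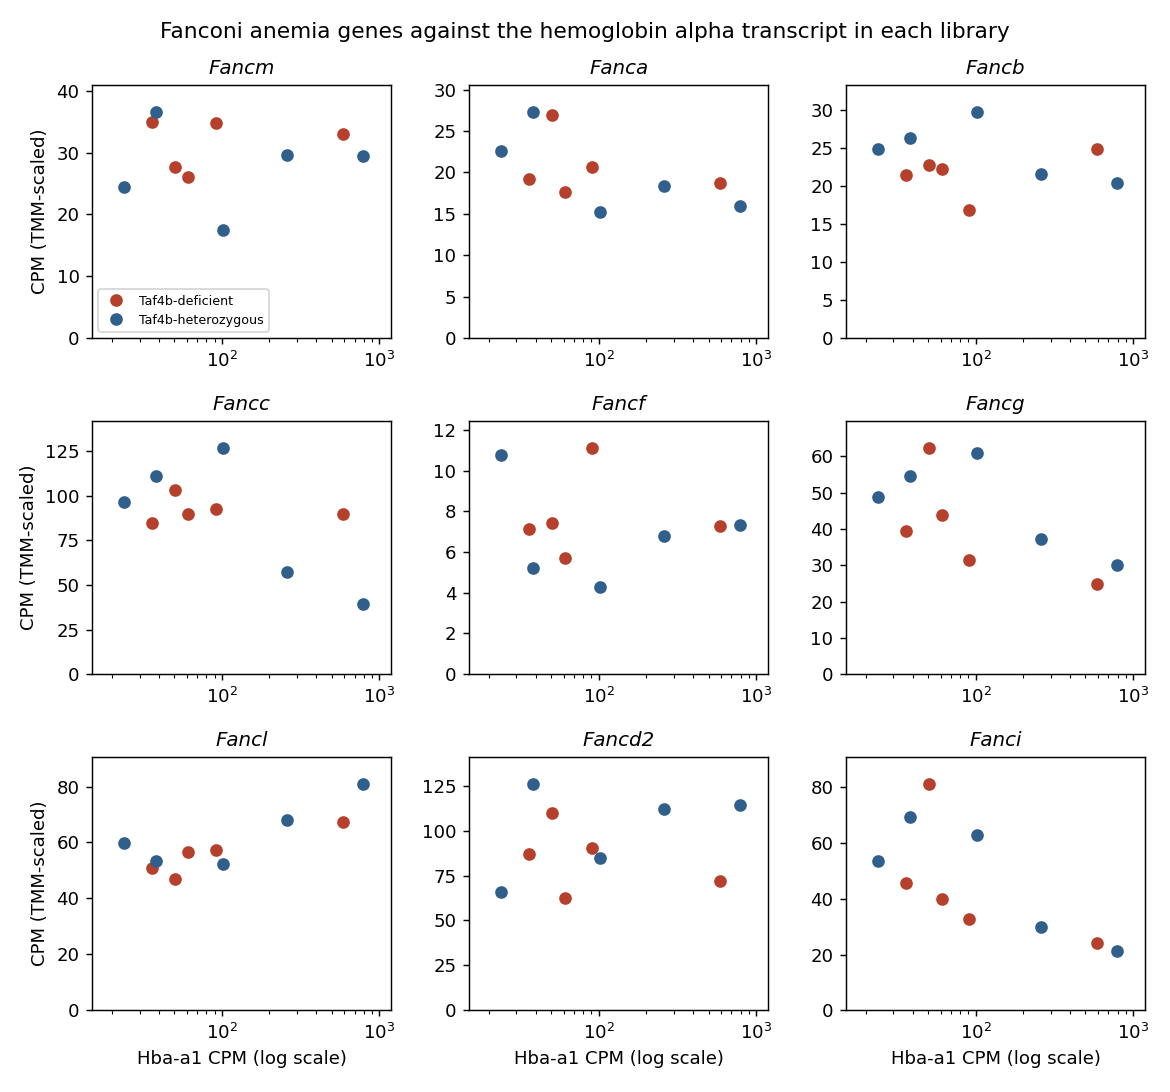
CPM of each Fanconi anemia gene (vertical axes, from 0) against CPM of Hba-a1 (horizontal log axes) in each of the 10 libraries, deficient in red and heterozygous in blue. The 3 libraries at right of each panel hold 260.4 to 798 CPM of Hba-a1, and there Fanci is at 21.2 to 29.8 CPM and Fancl at 67.4 to 80.9 CPM.

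The genes whose profile over the 10 libraries was most like a member's were found by the root mean square difference of centred log2 CPM, over 9638 candidate genes. For Fanci they were Cherp (0.104) and Mfn2 (0.143), for Fancc Klhl22 (0.131) and Glg1 (0.141), and for Fancg Exd2 (0.105) and Mtrex (0.118). No other Fanconi anemia gene was among them, but only the closest genes named here were kept, so this absence says little about the family.

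**Figure D5:**
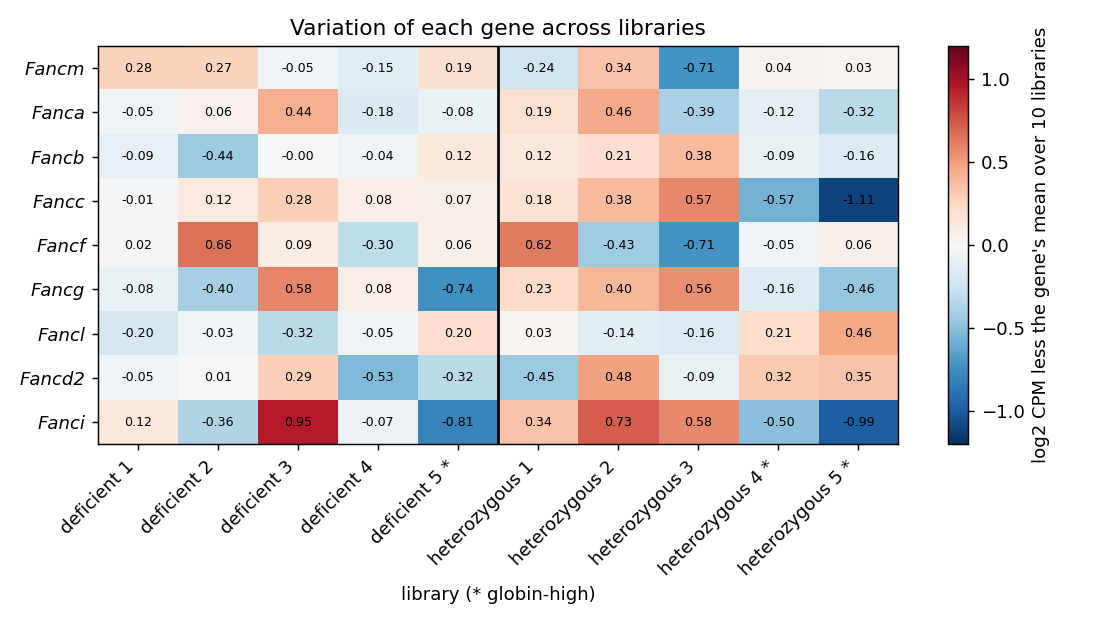
Log2 CPM of each Fanconi anemia gene less its mean over the 10 libraries, with deficient libraries left of the line and heterozygous libraries right of it, and globin-high libraries starred. Fanci, with an SD of 0.65, changes most between columns and Fancb, with 0.22, least.

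The other 42 genes of the pathway also held none that edgeR called by genotype. All 42 were tested, 22 had a positive and 20 a negative log2 fold change, and their median was 0.02. At an unadjusted p under 0.05, 4 were higher and 5 lower, against 16.6% of all genes tested. The genotypes did not overlap for 2 of the 42, Ercc1 and Atrip, against 3.53% of all genes tested. The authors' deposited table, which called 6.55% of all genes, called 2 of the 42 higher, Rev3l (log2 fold change 0.54, adjusted p = 0.0235) and Atr (0.71, adjusted p = 0.0299), and 2 lower, Ercc1 (-0.95, adjusted p = 0.0111) and Faap100 (-0.61, adjusted p = 0.0444). Those fold changes are rebuilt with the 3-level grouping in the model, whereas the edgeR test is on genotype alone. Among 7 other core complex genes, median -0.17, Faap100 averaged 46.8 ± 9.95 CPM in deficient and 72.7 ± 11.2 CPM in heterozygous libraries (log2 fold change -0.63 ± 0.19 (SE), adjusted p = 0.157). FAAP100 completes the module of FANCB and FANCL, but a shared change of this module was not tested. The log2 fold changes of Fancb (-0.18, adjusted p = 0.638) and Fancl (-0.17, adjusted p = 0.655) were within the spread between libraries. Of the 7 genes of the list, 2 were positive and 5 negative, and Faap20 was the lowest (log2 fold change -0.74, adjusted p = 0.362). In the same list Fance averaged 64.7 ± 9.95 CPM in deficient and 51.4 ± 23.5 CPM in heterozygous libraries (log2 fold change 0.33 ± 0.28 (SE), adjusted p = 0.567).

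Of the genes that remove ubiquitin from FANCD2 and FANCI, Usp1 averaged 140.3 ± 19.5 CPM in deficient and 86.9 ± 47.4 CPM in heterozygous libraries (log2 fold change 0.69 ± 0.32 (SE), adjusted p = 0.302). Its partner Wdr48 averaged 208 ± 55.0 CPM in deficient and 229 ± 81.3 CPM in heterozygous libraries (log2 fold change -0.14 ± 0.27 (SE), adjusted p = 0.828). Among 10 incision nuclease genes, median -0.09, Ercc1 averaged 31.7 ± 3.86 CPM in deficient and 60.8 ± 27.2 CPM in heterozygous libraries (log2 fold change -0.94 ± 0.25 (SE), adjusted p = 0.145), and each deficient library was below each heterozygous library. ERCC1 is the partner of the nuclease XPF. Among 9 recombination genes, median 0.14, Brca2 averaged 563 ± 100.0 CPM in deficient and 471 ± 174 CPM in heterozygous libraries (log2 fold change 0.26 ± 0.26 (SE), adjusted p = 0.642), and Brca1 averaged 112 ± 40.2 CPM in deficient and 78.2 ± 23.9 CPM in heterozygous libraries (log2 fold change 0.52 ± 0.27 (SE), adjusted p = 0.348). For translesion synthesis, 6 genes with a median of -0.02, Rev3l averaged 106 ± 24.3 CPM in deficient and 64.7 ± 17.9 CPM in heterozygous libraries (log2 fold change 0.72 ± 0.24 (SE), adjusted p = 0.184). It encodes the catalytic subunit of polymerase zeta. Of the 6 genes, 3 were positive and 3 negative. Mad2l2 of this list averaged 17.7 ± 2.98 CPM in deficient and 24.0 ± 3.86 CPM in heterozygous libraries (log2 fold change -0.44 ± 0.19 (SE), adjusted p = 0.276).

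Among 8 genes of ATR and BLM partners, median 0.22, Atr averaged 774 ± 286 CPM in deficient and 434 ± 198 CPM in heterozygous libraries (log2 fold change 0.84 ± 0.35 (SE), adjusted p = 0.256). It encodes the checkpoint kinase that phosphorylates FANCI. Its partner Atrip averaged 43.7 ± 4.44 CPM in deficient and 60.5 ± 11.3 CPM in heterozygous libraries (log2 fold change -0.47 ± 0.17 (SE), adjusted p = 0.214), with the deficient libraries all below the heterozygous ones. The 10 meiotic strand exchange genes had a median of -0.06 and the 15 replication genes one of -0.14, and edgeR called 0 genes in each. The authors' deposited table called 1 of these genes, Mki67 of the replication list (log2 fold change 0.85, adjusted p = 0.00025). In the globin-high split, 14 of the 42 pathway genes lay below the other 7 libraries and 1 above, against 11.7% and 8.69% of all genes. Those below included 7 of the 9 recombination genes, among them Brca2, with 279 to 408 CPM in the 3 globin-high libraries, against 493 to 709.7 CPM in the other 7. The comparison lists moved alike: of the 10 meiotic strand exchange genes, 6 lay below and 1 above. Of the 15 replication genes, 8 lay below and 0 above.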

How the data were processed

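Whole-number counts per gene and TPM, a length-scaled level, were deposited by the authors for 10 libraries, made on GRCm38 with Trim Galore 0.5.0, HISAT2 2.1.0, featureCounts of Subread 1.6.2 and StringTie 1.3.3b, per the submitters' processing notes. The authors also deposited, per the file headers, a DESeq2 comparison whose columns hold per gene a mean signal (normalized count), a log2 fold change, a p-value and the Wald score. How the counting treated strand and multi-mapped reads was not stated in any source read. Columns were matched to samples by genotype and replicate number.

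Genotypes were compared on the counts by edgeR 4.0.16 under R 4.3.3 (quasi-likelihood test on genotype alone, TMM scaling, its expression filter, 19244 genes, Benjamini-Hochberg adjusted p under 0.05), 5 libraries against 5. The script was tested on simulated data. Alternatives used DESeq2 1.42.0 and limma 3.58.1. The 382 genes with no symbol, which took under 0.1% of each library, stayed in the tests. Exon lengths are unions over GENCODE M21 models, and promoters are from RefSeq. Values count reads, not molecules, so intervals cover the spread between libraries only.

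All 9 members are named. From each other list the gene with the highest mean TPM and up to 3 with the smallest p could be named. The markers that could be named were Ddx4, Dazl, Stra8, Sohlh1, Foxl2 and Hba-a1, and no values of Dazl and Foxl2 are given. Pou5f1, Rec8, Lhx8, Nobox, Figla, Rrm1 and the genes that overlap a member were named outside this rule, after their values were seen. Members, lists and the globin-high libraries were chosen with earlier results of these data known.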

Additional observations from a re-analysis of the deposited data

How the results depend on the processing

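Of 26 alternatives, none called a Fanconi anemia gene (lowest adjusted p = 0.284), and Fancb, Fancd2, Fancg, Fancl and Fancm kept their direction in all of them. The log2 fold change of Fanca, 0.05 in the report, was -0.0400 by limma voom with quality weights, -0.0336 on log2(TPM + 1) with or without a filter, -0.0371 on log2(TPM + 0.1), -0.24 without the second litter date and -0.0373 without the 3 globin-high libraries. Fancc (0.10) was -0.27 without the globin-high libraries and -0.0729 when the third litter date was left out, Fancf (0.17) was -0.21 without the second litter date, and Fanci (-0.08) was 0.18 with litter date in the model and 0.24 without the first date. Leaving out each library in turn gave -0.0570 to 0.19 for Fanca, -0.0868 to 0.27 for Fancc, 0.00 to 0.39 for Fancf, -0.41 to 0.0934 for Fanci, -0.25 to -0.11 for Fancb, -0.37 to -0.16 for Fancd2, -0.41 (without deficient 3) to -0.0742 (without deficient 5) for Fancg, -0.26 (without deficient 5) to -0.0631 (without heterozygous 5) for Fancl and 0.0521 (without heterozygous 3) to 0.30 (without heterozygous 2) for Fancm. Of the 25 named genes of other lists, 22 kept their direction; Wdr48 was 0.0146 without the first date and -0.29 to 0.0322 leaving out each library, and without the globin-high libraries Meiob was -0.12 and Mnd1 0.0346. The causes were not tested.

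The count of genes called, 0 in the report, was 251 with no filter on low counts, 649 by DESeq2, 510 by limma voom with quality weights and 104 with the 3-level grouping that rebuilds the deposited fold changes in the model, of which 1 level is the 3 globin-high libraries. Leaving out each library in turn gave 0 to 606 genes, 606 of them without heterozygous 1 and 1 without heterozygous 2. A replicate block on the number in the labels gave 1 gene and called no member. Same-numbered libraries had correlations of their deviations of 0.17, 0.03, 0.12, -0.26 and 0.59, so the numbers were not taken to pair the libraries.

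Depth limits Fancf most, with down to 99 counts in a library.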
